A study of Mus musculus with 8 samples.

Results

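On 3 of the 4 two-colour arrays of the series, the sample labelled with the red dye Cy5 (replicate 2) was rich in testis transcripts and the sample labelled with the green dye Cy3 (replicate 1) was poor in them. The 3 arrays carried both samples of the N-terminal peptide group, of the Nt8U group and of the saline group, so these 3 within-array pairs hold 6 of the 8 samples. They were chosen by measured values, namely the gap in the protamine genes Prm1 and Prm2 and other germ cell genes. Every log ratio on them was therefore used by the choice, and all values below are a description with no test. The array with both obestatin samples was taken as the one without this gap and as a check on the dyes.

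The RNA came from mice labelled as CFT Swiss albino, 5 weeks old, after 8 days of intraperitoneal treatment. The N-terminal peptide is the amino-terminal part of obestatin, a peptide cut from the precursor of ghrelin, and Nt8U is named in the labels as an analog of that fragment. Obestatin itself was the remaining agent and saline the control. The peptide dose is 80 ng/kg in one part of the labels and 80 nmol/kg in another. The source is labelled as epididymal fat pad, while other fields say only epididymal tissue, and whether a sample is 1 mouse or a pool is not given. The epididymal fat pad lies against the testis and epididymis.

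Gene expression in the adult testis is dominated by germ cells. Spermatogonia enter meiosis as spermatocytes, become round spermatids that build the acrosome, and then elongate while protamines replace the histones. Many housekeeping enzymes have a copy that only germ cells use, and the X chromosome is silenced during meiosis in males. Sertoli cells nurse the germ cells and Leydig cells make testosterone. The epididymis, which stores and matures sperm, has a secretory epithelium that makes other proteins entirely.

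Samples were assigned to channels by the submitters' notes on the files. In the authors' deposited table of log2 values the columns labelled Cy3 followed the red channel instead; under that table's labels replicates 1 and 2 would trade places on every array and each sign below would turn. The values are log2 ratios of replicate 2 over replicate 1 within an array, and log2 levels of each channel normalized over all arrays, on which a blank probe sits near 6. A gene was called higher or lower when it differed by 2-fold or more in the same direction on all 3 arrays. Of 15783 genes measured, 3443 (21.8%) were higher in replicate 2 on all 3 arrays and 479 (3.03%) were lower. This split, 87.8% of calls higher, depended on the scaling: it was 65.0% on the processed signals of the scanner software (3795 higher, 2048 lower) and 46.9% with the authors' deposited log2 values (2601 higher, 2947 lower). Single arrays had far more: 58.1% of genes differed by 2-fold or more either way on the N-terminal peptide array, 36.5% on the Nt8U array and 52.4% on the saline array, against 8.5% on the obestatin array. At 4-fold the counts on all 3 arrays were 2077 higher and 6 lower, and at 16-fold 694 higher and 0 lower. By the log2 ratio nearest to 0 on any of the 3 arrays, Bhmt2 (1.0015) and Stc2 (-1.0019) lay just inside the limit and 4930404I05Rik (0.9998) and Gpx1 (-0.9995) just outside. Median signals of the 8 samples were 73 to 231.5 intensity units over backgrounds of 22 to 31, and 25035 to 30697 of 41174 probes were well above background. The precision is limited by how few arrays there are.

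The obestatin array was not free of the gap. Germ cell genes differed there too, by less and in the opposite direction, with the Cy5 sample lower. Of the 3443 genes higher in replicate 2 on the 3 arrays, 842 were 2-fold or more lower in replicate 2 on the obestatin array and 4 were higher. Of all 15783 genes, 1125 were 2-fold or more lower and 217 higher on that array. Across genes its log ratios correlated with those of the N-terminal peptide, Nt8U and saline arrays at Pearson's r of -0.57, -0.33 and -0.58, while N-terminal peptide and saline log ratios correlated at 0.944 and Nt8U with them at 0.726 and 0.739. All 4 arrays share the dye order, so dye and replicate cannot be told apart, and a part of the dye in the gap was not tested.

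The markers come first. Prm1, which packs sperm DNA, had levels of 15.44, 15.18 and 15.99 in replicate 2 of the N-terminal peptide, Nt8U and saline groups, against 12.74, 12.17 and 12.70 in replicate 1. All 3 replicate 2 spots were at the ceiling of the scanner, so its ratio is a bound: at least 8.00-fold higher. Prm2, the second protamine, had 15.40, 15.19 and 15.99 in the same replicate 2 samples, against 12.44, 11.70 and 12.24 in replicate 1, which is at least 10.6-fold higher. In both genes no replicate 1 level came within 2 log2 units of a replicate 2 level on the 3 arrays. The obestatin samples, which were not at the ceiling, had Prm1 at 14.67 in replicate 2 and 16.18 in replicate 1, so the protamine signal was high in both of them.

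**Figure D1:**
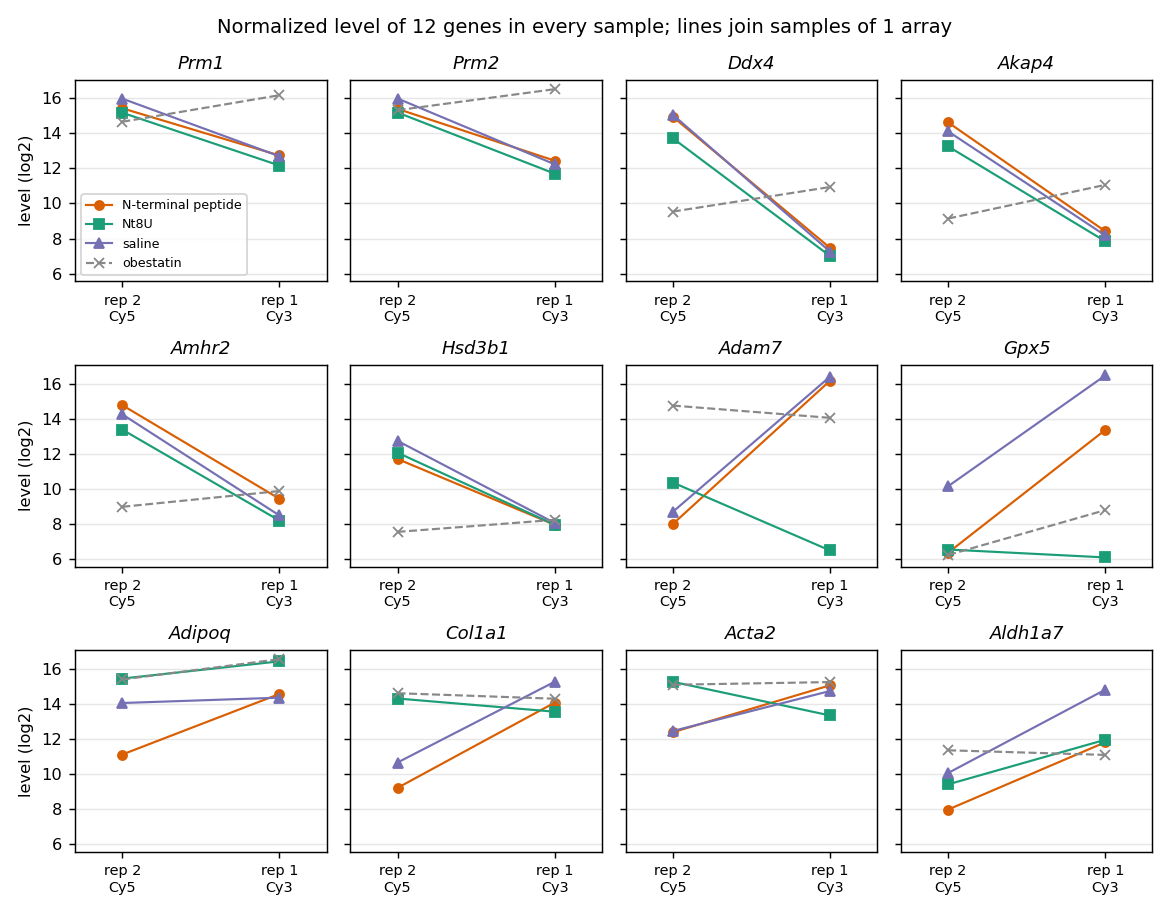
Normalized level (log2) of 12 genes in the replicate 2 (Cy5, left) and replicate 1 (Cy3, right) sample of each of the 4 arrays, with lines joining samples that shared an array. Prm1, Prm2, Ddx4, Akap4, Amhr2 and Hsd3b1 are higher in replicate 2 on the N-terminal peptide, Nt8U and saline arrays, while Adam7 and Gpx5 are lower in replicate 2 on the N-terminal peptide and saline arrays and not on the Nt8U array; Prm1 and Prm2 are at the scanner's ceiling in those 3 replicate 2 samples.

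Genes of meiotic and later germ cells stood higher in replicate 2 almost throughout, and the spermatogonia list was mixed. The median log2 ratio, averaged over the 3 arrays, was 2.02 ± 0.51 for 14 measured spermatogonia genes, 4.28 ± 0.32 for 31 genes of meiotic spermatocytes, 4.99 ± 0.48 for 30 of round spermatids and 5.54 ± 0.30 for 26 of elongating spermatids (SD, n = 3 arrays). A list of 21 genes of the sperm axoneme, the motor of the tail, had 4.78 ± 0.17, and the median of all measured genes was 0.19 ± 0.04. Both samples of a pair share an array, and the lists were written with these arrays' results known. In bulk RNA, fewer cells of a type and less RNA per cell cannot be told apart.

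Among the 14 spermatogonia genes, 7 were called higher, against 21.8% of all genes, none lower, and 7 neither. Ddx4, the germ cell RNA helicase also known as Vasa, had the largest gap over all unsaturated genes, with levels of 14.95, 13.72 and 15.07 in replicate 2 of the N-terminal peptide, Nt8U and saline groups, against 7.47, 7.002 and 7.25 in replicate 1. Its mean log2 ratio was 7.34 ± 0.56. Ddx4 stays on through meiosis, and so does Dazl (3.87 ± 0.61). Stra8 (4.78 ± 0.48, with 2 of 3 replicate 1 spots well above background) marks entry into meiosis. Tex13a, an X-linked gene, had 5.86 ± 0.49. The stem cell receptor gene Gfra1 went the other way on average (-1.31, not called), and Kit, the receptor of differentiating spermatogonia, averaged 0.77 and was not called. Ret and Dppa3 sat near blank probes in all 8 samples.

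Of the 31 meiotic genes 29 were higher and none lower. All 31 were well above background in each of the 3 replicate 2 samples. In replicate 1 of the N-terminal peptide, Nt8U and saline groups 19, 15 and 18 were. Part of the list thus passed the filter on an array through replicate 2 alone, which favours higher calls. Smc1b, the cohesin subunit of meiotic chromosomes, had levels of 14.43, 13.19 and 14.04 in replicate 2 of the N-terminal peptide, Nt8U and saline groups, against 7.58, 6.86 and 7.05 in replicate 1, a log2 ratio of 6.73 ± 0.34 with 2 of 3 replicate 1 spots well above background. Its partner Stag3 had 6.10 ± 0.12, the smallest spread named here for this stage. Mael of the piRNA pathway had 6.72 ± 0.28 and Syce1 of the synaptonemal complex 6.18 ± 0.59, each with 1 replicate 2 sample at the ceiling. The exceptions were Msh5, at 1.57, and Sycp3. Sycp3, another synaptonemal complex gene, had 12.14, 9.82 and 11.88 in replicate 2 of the N-terminal peptide, Nt8U and saline groups, against 7.29, 9.02 and 7.30 in replicate 1. It was thus 2-fold or more higher on the N-terminal peptide and saline arrays but not on the Nt8U array, where replicate 1 had the highest level of the 3 testis-poor samples.

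In the round spermatid list 29 of 30 genes were higher, the exception being Spink2, a protease inhibitor gene. Spink2 was at the ceiling in all 3 replicate 2 samples and had 15.25, 9.42 and 16.16 in replicate 1 of the N-terminal peptide, Nt8U and saline groups. Adam3, a sperm surface protein needed to reach the egg, had levels of 15.23, 15.01 and 15.87 in replicate 2 of the N-terminal peptide, Nt8U and saline groups, against 8.48, 7.82 and 8.39 in replicate 1, with 2 of the replicate 2 spots at the ceiling. Tssk2, a spermatid kinase, reached a log2 ratio of 6.45 ± 0.51, Tex101 6.28 ± 0.27, and Acrv1 5.11 ± 0.57, while Zpbp2 of the acrosome had 6.41 ± 0.43 with 2 replicate 2 spots at the ceiling. Crem, the transcription activator of spermatids, had 14.20, 13.35 and 14.04 in replicate 2, against 9.19, 9.44 and 8.92 in replicate 1, and its coactivator Fhl5 had 13.40, 12.71 and 13.49 in replicate 2, against 7.59, 7.57 and 7.13 in replicate 1. Both genes were called higher, as were 21.8% of all genes, and both were named after their values were seen.

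Elongating spermatid genes were higher in 25 of 26 cases, Hook1 (1.14, not called) being the exception. Tnp1, the transition protein that precedes the protamines on sperm DNA, was at the ceiling in all 3 replicate 2 samples and at least 16.9-fold higher there. Its partner Tnp2 had 15.43, 14.88 and 15.89 in replicate 2, against 13.18, 11.78 and 12.87 in replicate 1, a log2 ratio of 2.79 ± 0.47 with 1 spot at the ceiling. Cabs1, at least 89.0-fold higher, and Spata19, at least 102-fold higher, were also at the ceiling in all 3. Capza3, the sperm actin-capping subunit, stayed below the ceiling and had 14.40, 13.55 and 14.73 in replicate 2, against 7.47, 7.41 and 7.42 in replicate 1. The measured gaps of the protamine and transition protein genes were thus smaller than that of Capza3. Their bright side was cut off at the ceiling in at least 1 sample, and their replicate 1 levels lay far above blank probes. In this list 14 of 26 genes were saturated in the N-terminal peptide replicate 2 sample and 7 each in the Nt8U and saline replicate 2 samples, against 0 in each replicate 1 sample.

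All 21 measured axoneme genes were higher. Spag16, of the central apparatus of the tail, had 14.48, 13.35 and 14.27 in replicate 2 of the N-terminal peptide, Nt8U and saline groups, against 7.82, 7.23 and 7.47 in replicate 1. Dnah8, a dynein heavy chain, had a log2 ratio of 5.82 ± 0.44, Spag6 6.07 ± 0.64 and the tektin gene Tekt2 5.86 ± 0.34, with 1 spot of Tekt2 at the ceiling. Over all genes, the 8 with the largest smallest ratio and no ceiling were Ddx4, Plcz1, 4933409G03Rik, Spertl, Lrrc34, Erich3, Cst13 and Ccer1, with means from 6.65 to 7.34. Plcz1 is the sperm phospholipase that starts calcium waves in the egg, and it had 15.14, 13.95 and 15.05 in replicate 2, against 7.70, 7.36 and 7.79 in replicate 1. Of the 3443 higher genes, 501 were not well above background in any of the 3 replicate 1 samples and 209 were saturated in at least 1 replicate 2 sample, so their ratios are compressed.

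**Figure D2:**
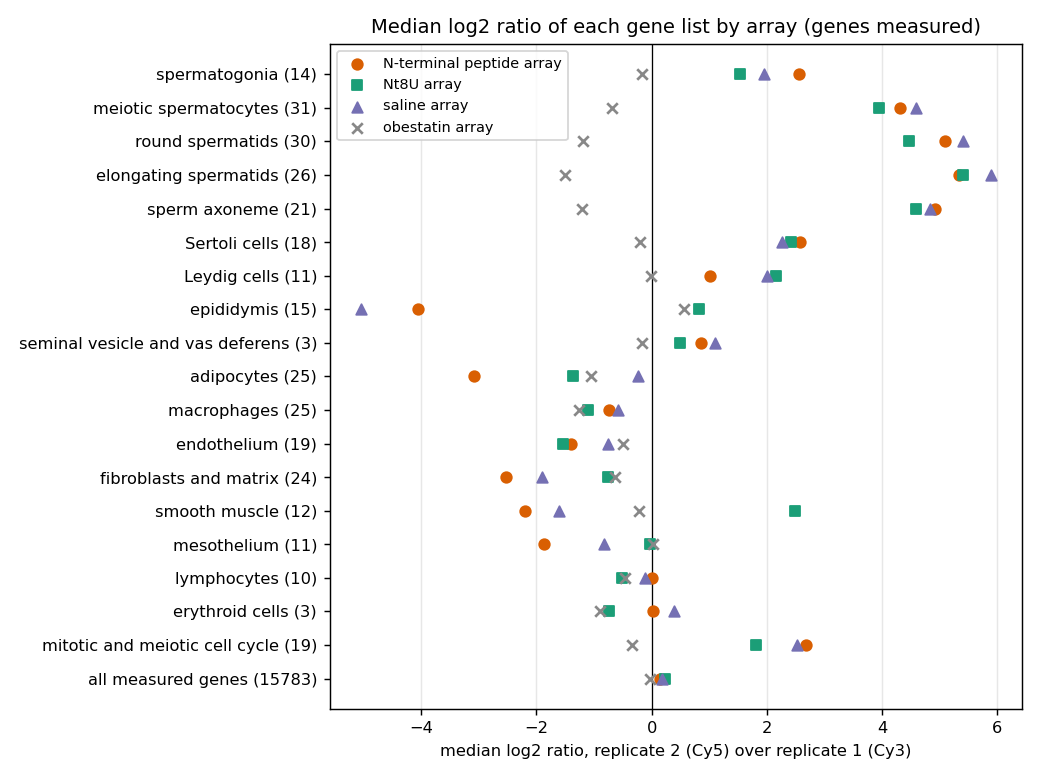
Median log2 ratio (replicate 2 over replicate 1) of the measured genes of each list, 1 symbol per array; the number of measured genes stands in brackets. The 5 germ cell and tail lists lie between 1.54 and 5.89 on the N-terminal peptide, Nt8U and saline arrays and below 0 on the obestatin array, while epididymis and smooth muscle genes lie on opposite sides of 0 on the Nt8U array and the other 2.

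The level of germ cell genes differed between the 3 testis-rich samples. The median level of elongating spermatid genes was 15.23, 14.28 and 15.35 in replicate 2 of the N-terminal peptide, Nt8U and saline groups, against 9.41, 8.57 and 9.20 in replicate 1, and the obestatin samples lay between, at 10.29 in replicate 2 and 11.64 in replicate 1. Meiotic genes had medians of 11.996, 10.57 and 11.88 in the same replicate 2 samples, against 7.05, 6.83 and 6.75 in replicate 1. The Nt8U replicate 2 sample was thus the lowest of the 3 testis-rich samples in both lists. The median log2 ratios of elongating spermatid genes were 5.34, 5.41 and 5.89 on the N-terminal peptide, Nt8U and saline arrays. Those of meiotic genes were 4.32, 3.94 and 4.58. For the elongating list the Nt8U gap was thus not the smallest, and saturation compressed ratios of that list on all 3 arrays. Cyclin and mitotic kinase genes, which dividing and meiotic germ cells use, also stood higher: 14 of 19 cell cycle genes were called, against 21.8% of all genes, with a median log2 ratio of 2.34 ± 0.47, led by Bub1 (4.76 ± 0.79) and Nek2 (4.64 ± 0.83). Mcm2 (0.04) and Ccna2 (-0.06) were not called.

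Promoter sequences were set beside the spermatid genes because CREM, the activator named above, binds the cAMP response element TGACGTCA. The full element was rare in the 300 bases from 250 before to 50 after the start sites in the RefSeq promoter table (GRCm38.p6, both strands, 27025 promoters with 1 start site per gene). It lay in 3.55% of the promoters of genes higher in replicate 2 and in 1.07% of those of genes lower, against 2.90% of those of all measured genes and 1.88% of all promoters. Of 26 round spermatid genes with a promoter 1 held it, Izumo1, whose protein lets the sperm fuse with the egg, and of 22 elongating spermatid genes 0 did. The Prm1 promoter holds a variant with another base at the fifth place, so TGACNTCA was searched as well, a motif chosen after the Prm1 letters and ratios had been seen. It includes the full element and overlaps it wherever that occurs. The 120 bases before the start site are shown for the 2 markers, for Tnp1, Akap4, Gapdhs and Actl7b of the elongating list and for Tssk1 and Izumo1 of the round list, to let the element be compared in place; they run 5′ to 3′ on the gene's strand, with matches to TGACNTCA on either strand in capitals.
Prm1, chr16:10796824-10796943, minus strand: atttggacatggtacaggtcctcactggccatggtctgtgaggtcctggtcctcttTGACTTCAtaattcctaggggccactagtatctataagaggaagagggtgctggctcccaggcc
Prm2, chr16:10792106-10792225, minus strand: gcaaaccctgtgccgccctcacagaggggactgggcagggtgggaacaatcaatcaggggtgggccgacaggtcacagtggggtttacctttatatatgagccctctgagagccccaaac
Tnp1, chr1:73015900-73016019, minus strand: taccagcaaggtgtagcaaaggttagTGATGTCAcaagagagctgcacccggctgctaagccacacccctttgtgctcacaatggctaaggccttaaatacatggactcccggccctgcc
Akap4, chrX:7067395-7067514, plus strand: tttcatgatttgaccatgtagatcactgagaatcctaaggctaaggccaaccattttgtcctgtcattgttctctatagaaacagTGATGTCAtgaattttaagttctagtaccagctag
Gapdhs, chr7:30743682-30743801, minus strand: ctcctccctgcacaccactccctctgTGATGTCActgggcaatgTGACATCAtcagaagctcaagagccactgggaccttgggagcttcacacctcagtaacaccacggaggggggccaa
Actl7b, chr4:56741426-56741545, minus strand: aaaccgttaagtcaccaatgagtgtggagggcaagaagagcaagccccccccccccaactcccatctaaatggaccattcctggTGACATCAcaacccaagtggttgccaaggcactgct
Tssk1, chr16:17894083-17894202, plus strand: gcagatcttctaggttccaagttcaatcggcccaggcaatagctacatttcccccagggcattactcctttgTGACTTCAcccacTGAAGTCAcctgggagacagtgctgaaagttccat
Izumo1, chr7:45621691-45621810, plus strand: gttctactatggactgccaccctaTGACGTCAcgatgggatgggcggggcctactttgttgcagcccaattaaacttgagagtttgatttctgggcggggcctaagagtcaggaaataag

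The variant was more frequent in promoters of the listed spermatid genes than in promoters at large. It lay in 9 of 22 elongating spermatid promoters (40.9%) and 9 of 26 round spermatid promoters (34.6%), against 8.97% of all 27025 promoters and 8.03% of those of measured genes. Among the other germ cell lists, 1 of 25 meiotic (4.0%), 1 of 20 axoneme (5.0%) and 0 of 11 spermatogonia promoters held it. Some short lists of other cell types also had shares above that of all measured genes, with 2 of 9 smooth muscle (22.2%), 2 of 11 epididymis (18.2%) and 2 of 13 fibroblast and matrix promoters (15.4%). Among genes higher in replicate 2 the share was 13.5% (381 of 2819) and among genes lower 6.17% (23 of 373). In 14 of the 18 matching spermatid promoters of higher genes the first match began between 110 and 20 bases before the start site. The 18 include Prm1, whose letters set the motif. The share of matches in that window among all promoters was not counted, so no preference for a place can be read from this count. Gapdhs and Tssk1 each held 2 matches, while Prm2, the other marker, held none in the 300 bases, which says only that these letters are not in that window. The shorter core TGACG, part of the full element, did not show this order, with 13.6% of elongating and 34.6% of round spermatid promoters, against 28.5% of those of measured genes and 21.0% of all. These are matches of letters, and binding was not measured.

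**Figure D3:**
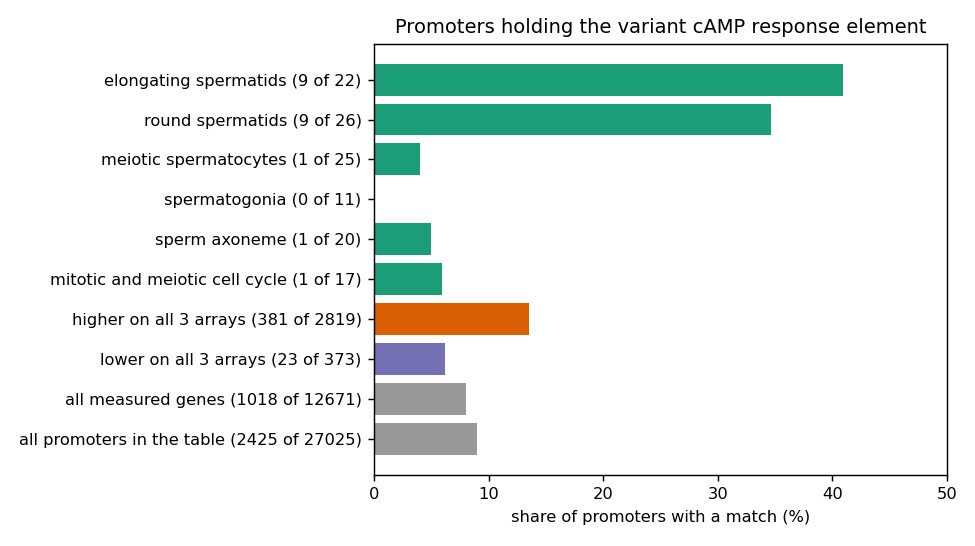
Share of promoters (%) with at least 1 match to TGACNTCA on either strand in the 300 bases around the start site, by list of measured genes, with the counts in brackets. Elongating (40.9%) and round spermatid genes (34.6%) stand above meiotic genes (4.0%) and all promoters (8.97%).

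Germ cell copies of housekeeping enzymes were set beside their somatic counterparts in 24 pairs, of which 20 had both members measured. The testis member was higher on all 3 arrays in 18 of the 20, against 21.8% of all genes, and the somatic member in 3. Pgk2, the phosphoglycerate kinase of sperm glycolysis, had 15.26, 14.40 and 15.76 in replicate 2 of the N-terminal peptide, Nt8U and saline groups, against 9.69, 8.58 and 9.23 in replicate 1. Its X-linked parent Pgk1 had 10.72, 12.41 and 10.84 in replicate 2, against 13.38, 13.20 and 12.94 in replicate 1. The testis copy was thus higher and the parent copy lower in replicate 2 in every pair, although Pgk1 missed the 2-fold limit on the Nt8U array.

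In Pgk2, Gapdhs, Cox8c, Rpl39l, Ppp3r2 and Tbpl1 the N-terminal peptide replicate 2 spot was at the ceiling, so that their means include a compressed ratio. The same opposition held for pyruvate dehydrogenase, where Pdha2 had a log2 ratio of 6.43 ± 0.78, with 2 of 3 replicate 1 spots well above background, and X-linked Pdha1 was called lower at -2.38 ± 0.79. In glycolysis, Gapdhs had 5.71 ± 0.32 and the common reference gene Gapdh was called lower, at -1.31 ± 0.11. Cox6b2 of cytochrome oxidase had 3.90 ± 0.19 while Cox6b1 was called lower (-1.46 ± 0.18), and Cox8c had 7.26 ± 0.34 beside -2.004 ± 1.18 for Cox8a. Ribosomal Rpl39l reached 7.16 ± 0.54, its X-linked parent Rpl39 -2.41 ± 1.90. Rpl39 had 11.39, 14.01 and 12.28 in replicate 2 of the N-terminal peptide, Nt8U and saline groups, against 15.40, 14.32 and 15.18 in replicate 1, so its gap was large on the N-terminal peptide and saline arrays and under 2-fold on the Nt8U array.

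Not all pairs followed. Ldhc, the sperm lactate dehydrogenase, was at least 75.4-fold higher, and its somatic partner Ldha was also higher on average (1.83 ± 0.98), though not called and with 2 replicate 2 spots at the ceiling. Both members of the TATA-binding pair were called higher, Tbpl1 at 4.81 ± 0.55 and Tbp at 2.85 ± 0.58, as were the calcineurin subunits Ppp3r2 (7.25 ± 0.42) and Ppp3r1 (1.67 ± 0.25). In the polyadenylation factor pair the X-linked parent Cstf2 was the one called higher, with 12.97, 11.96 and 12.54 in replicate 2 of the N-terminal peptide, Nt8U and saline groups, against 9.59, 8.81 and 9.62 in replicate 1. Its retrocopy Cstf2t had only 0.86 ± 0.23. Utp14b, the other testis copy not called, was not well above background in any replicate 1 sample. Probes for near-identical copies may take up signal from each other.

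**Figure D4:**
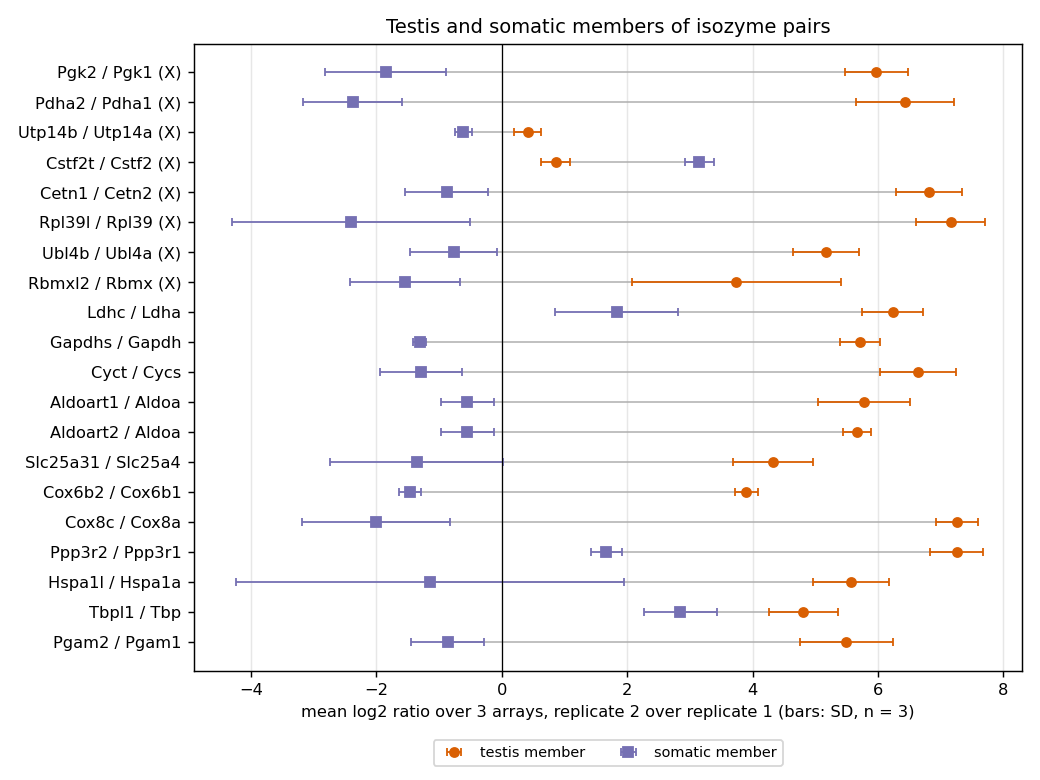
Mean log2 ratio (replicate 2 over replicate 1) over the N-terminal peptide, Nt8U and saline arrays, with SD (n = 3 arrays), for the testis member and the somatic member of 20 pairs; (X) marks pairs whose somatic member is X-linked. The testis member lies to the right of its partner in every pair except Cstf2t and Cstf2.

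The median log2 ratio of X-linked genes lay below that of autosomal genes on all 3 arrays, and below 0 on the N-terminal peptide and saline arrays. The median log2 ratio of 571 X-linked genes was -0.60 on the N-terminal peptide array, 0.16 on the Nt8U array and -0.42 on the saline array, against 0.16, 0.23 and 0.19 for 15173 autosomal genes and 0.02 for X-linked genes on the obestatin array. On the Nt8U array single autosomes ranged from 0.09 to 0.31, so X lay within their range there. Among autosomes the mean over the 3 arrays lay between 0.06 for chromosome 19 and 0.31 for chromosome 16, and for X it was -0.28 ± 0.40. Without the filter on dim probes the X value was -0.08, and with probes well above background in all 6 samples it was -0.80. The X nevertheless held almost the same share of higher genes as the autosomes, 22.8% against 21.7%, with 4.90% against 2.97% lower. Its highest members were Cypt3, Asb9 and 1700084M14Rik, with lowest log2 ratios of 6.43, 6.15 and 6.04, and 1 spot of Cypt3 at the ceiling. Next came H2al1n (5.66) and H2al1m (5.65), copies of a spermatid histone that are near-identical, so their probes may share signal. Akap4, the main scaffold of the sperm tail sheath and also X-linked, had 14.63, 13.26 and 14.12 in replicate 2, against 8.41, 7.84 and 8.17 in replicate 1.

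Of 13 measured genes on the Y chromosome 8 were higher, against 21.8% of all genes, and none lower. Zfy2, a spermatid zinc finger gene, had 10.96, 9.74 and 10.61 in replicate 2 of the N-terminal peptide, Nt8U and saline groups, against 6.51, 6.54 and 6.26 in replicate 1. Uba1y, a testis ubiquitin-activating enzyme gene, had 10.88, 9.85 and 10.83 in replicate 2, against 6.40, 6.59 and 6.39 in replicate 1. Neither gene was well above background in any of those replicate 1 samples, and the bounds are at least 16.1-fold higher for Zfy2 and at least 16.7-fold higher for Uba1y. The broadly expressed Y-linked genes Kdm5d (-0.89), Uty (-0.90) and Eif2s3y (0.31) were not called. These Y-linked genes were named after their values were seen, and Sly and Ssty1, also called higher, belong to multicopy families.

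**Figure D5:**
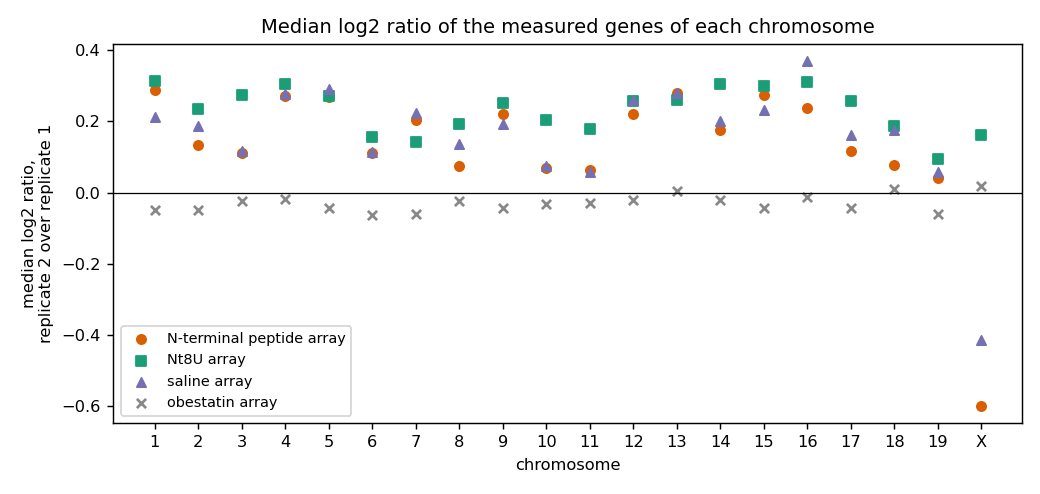
Median log2 ratio (replicate 2 over replicate 1) of the measured genes of each autosome and of the X chromosome, 1 symbol per array. Autosomes lie between 0 and 0.4 on the N-terminal peptide, Nt8U and saline arrays, and X-linked genes lie below 0 on the N-terminal peptide (-0.60) and saline arrays (-0.42) but not on the Nt8U array (0.16).

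Genes of somatic testis cells were higher in part. Of 18 measured Sertoli cell genes 10 were higher, against 21.8% of all genes, 1 (Trf) lower and 7 neither, with a median log2 ratio of 2.42 ± 0.15. Amhr2, the receptor of anti-Müllerian hormone, had 14.77, 13.37 and 14.24 in replicate 2 of the N-terminal peptide, Nt8U and saline groups, against 9.42, 8.18 and 8.47 in replicate 1, a log2 ratio of 5.44 ± 0.30. Cst9 (5.35 ± 0.72) and Aard (4.94 ± 0.76) were well above background in 1 of 3 replicate 1 samples, so the other ratios of both are bounds. The best-known Sertoli genes did not all follow. Sox9 had 8.93, 9.33 and 9.61 in replicate 2, against 10.11, 7.06 and 11.29 in replicate 1, so it was lower on the N-terminal peptide and saline arrays and higher on the Nt8U array, and Fshr and Amh sat close to blank probes. Wt1 and the inhibin subunit Inha, both called higher, averaged 2.29 and 1.94.

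Among 11 Leydig cell genes 5 were higher, against 21.8% of all genes, and 6 were neither. All 5 act in steroid synthesis. Hsd3b1 had 11.69, 12.05 and 12.73 in replicate 2 of the N-terminal peptide, Nt8U and saline groups, against 7.93, 7.94 and 8.04 in replicate 1, a log2 ratio of 4.19 ± 0.47. The cholesterol carrier gene Star had 2.47 ± 0.34. Hsd17b3, which makes testosterone, had 3.05 ± 0.56 and Cyp11a1 2.54 ± 0.54, with 2 and 1 of 3 replicate 1 spots well above background. Hsd3b6, dim in all 3 replicate 1 samples, was at least 4.36-fold higher. Cyp17a1 was higher by more than 2-fold on the Nt8U and saline arrays but had 10.54 in replicate 2 and 10.02 in replicate 1 of the N-terminal peptide group. The Sertoli and Leydig medians were thus positive on the same 3 arrays as those of the germ cells, and below those of meiotic and spermatid genes.

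The 3 testis-poor samples were not alike. The median level of 15 epididymis genes was 7.01, 7.12 and 10.14 in replicate 2 of the N-terminal peptide, Nt8U and saline groups, against 13.02, 6.45 and 16.29 in replicate 1. Epididymal secretory genes were therefore far lower in the testis-rich sample on the N-terminal peptide and saline arrays (median log2 ratios -4.06 and -5.04) and not on the Nt8U array (0.81), where neither sample had much of them. None of the 15 genes was called in either direction on all 3 arrays, against 21.8% of all genes higher and 3.03% lower. In the saline replicate 1 sample 6 of the 15 were at the ceiling, and in the Nt8U replicate 1 sample 3 were well above background. Adam7, an epididymal membrane protein at the ceiling in 1 replicate 1 sample, had 7.98, 10.35 and 8.68 in replicate 2, against 16.16, 6.47 and 16.39 in replicate 1.

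Within the epididymis genes, the samples differed gene by gene. Gpx5, a secreted peroxidase of the epididymal head, had 6.34, 6.52 and 10.14 in replicate 2 of the N-terminal peptide, Nt8U and saline groups, against 13.35, 6.07 and 16.46 in replicate 1. Lcn8, a lipocalin of its initial segment, failed the filter on dim probes and had 5.81, 6.17 and 10.99 in replicate 2, against 6.64, 5.91 and 16.45 in replicate 1. Spint4, a protease inhibitor gene that also failed the filter, had the reverse order of arrays, with 9.95, 5.98 and 5.98 in replicate 2, against 16.70, 5.96 and 6.13 in replicate 1. The saline pair thus carried Lcn8 and no Spint4 signal above blank probes, and the N-terminal peptide pair Spint4 and almost no Lcn8. Lcn5 had 12.87, 8.98 and 12.73 in replicate 2, against 16.92, 6.41 and 16.48 in replicate 1, and was bright in both pairs. Its replicate 1 spots were at the ceiling in both pairs, as was that of Gpx5 in the saline pair. Lcn8 and Spint4 were named after their values were seen. Seminal vesicle genes were mostly near blank level, except that Svs5 was at least 8.47-fold higher in replicate 2.

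Adipocyte genes, the labelled tissue's own, were present in all samples and highest in the sample where epididymis genes were lowest. Their median level was 9.32, 13.33 and 11.43 in replicate 2 of the N-terminal peptide, Nt8U and saline groups, against 11.55, 15.10 and 11.83 in replicate 1, and 13.24 and 14.09 in the obestatin replicate 2 and 1 samples. Of 25 measured genes 2 were lower on all 3 arrays, against 3.03% of all genes, namely Cebpa (-2.67 ± 1.34) and the leptin gene Lep (-2.39 ± 0.91). Plin1 and Pparg, with log2 ratios of -0.73 and -0.01 on the saline array, were not called. The adipocyte median log2 ratio was -1.57 ± 1.43 on the 3 arrays and -1.05 on the obestatin array, and -0.57 with the obestatin ratio subtracted. Lep had 6.03, 11.19 and 8.68 in replicate 2, against 9.44, 13.28 and 10.34 in replicate 1. Adipoq, which encodes adiponectin, had 11.10, 15.44 and 14.04 in replicate 2, against 14.56, 16.42 and 14.34 in replicate 1, so its log2 ratio was -3.46 on the N-terminal peptide array and -0.30 on the saline array. Both Nt8U spots of Adipoq were at the ceiling. Of the 25 genes, 7 were saturated in the Nt8U replicate 2 sample and 9 in its replicate 1 sample. Ratios on that array and the count of lower genes are therefore limited by the ceiling. Aqp7, the glycerol channel of fat cells, went against the list: it had 14.32, 13.31 and 14.00 in replicate 2, against 8.83, 10.88 and 8.28 in replicate 1. Aqp7 is also made by spermatids.

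Among other cell types of fat, some stromal and vascular genes were lower in replicate 2 and most were not called. Of 24 fibroblast and matrix genes 7 were lower and none higher, against 3.03% of all genes lower, and 17 were neither. Col1a1 was among the 17, with log2 ratios of -4.87, 0.75 and -4.61 on the N-terminal peptide, Nt8U and saline arrays. Of 19 endothelial genes 5 were lower, led by Egfl7 (-1.86 ± 0.65), and 14 were neither. Both lists also lay below 0 on the obestatin array, with medians of -0.64 and -0.50, and Dpt, at -2.36 ± 0.63 on the 3 arrays, had -1.78 there. Of 11 mesothelial genes 1 was higher, against 21.8% of all genes, and none lower. The gene called was Wt1, which is also on the Sertoli list. Msln was not called, with log2 ratios of -3.92, -0.69 and -1.14 on the N-terminal peptide, Nt8U and saline arrays. Pecam1, the endothelial adhesion molecule, had 6.36, 8.41 and 6.85 in replicate 2 of the N-terminal peptide, Nt8U and saline groups, against 7.75, 10.11 and 7.87 in replicate 1. In macrophages 20 of 25 genes were neither and 4 were lower, among these C1qa (-1.55 ± 0.09) and Csf1r (-1.14 ± 0.11), but both were also lower in replicate 2 on the obestatin array, with levels of 10.66 for C1qa in replicate 2 and 12.23 in replicate 1. The macrophage median there was -1.26, beyond that of the 3 arrays (-0.81 ± 0.27), so the direction of these genes was the same on all 4 arrays. With the obestatin ratio subtracted the macrophage median was 0.37, C1qa had 0.03 and Csf1r 0.02. Msr1, a scavenger receptor gene on the macrophage list, was the one called higher (2.12 ± 0.97), and among lymphocyte genes Cd3d was (3.67 ± 1.31), while Ighm, Cd74 and Thy1 were lower. Thy1 is also on the fibroblast and matrix list and is counted in both.

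Smooth muscle genes split the arrays. Their median log2 ratio was -2.19 on the N-terminal peptide array, 2.50 on the Nt8U array and -1.61 on the saline array. Acta2, smooth muscle actin, had 12.37, 15.25 and 12.44 in replicate 2 of the N-terminal peptide, Nt8U and saline groups, against 15.05, 13.33 and 14.73 in replicate 1. The Nt8U replicate 2 sample had the highest smooth muscle median of all 8 samples, at 14.87, beside 10.07 and 10.27 in the other testis-rich samples. In it 5 of the 12 genes, Acta2 among them, were at the ceiling, against 0 in the Nt8U replicate 1 sample. Their ratios on that array are therefore compressed. Krt18, an epithelial keratin, turned in the same way, with 11.15, 14.17 and 10.61 in replicate 2, against 16.65, 9.22 and 16.12 in replicate 1. In all, 515 genes were 2-fold or more higher on 1 of the arrays and 2-fold or more lower on another.

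The 479 genes lower on all 3 arrays were 3.03% of all genes. They held none of the 15 epididymis and 12 smooth muscle genes measured. In lists this short that count is close to the share over all genes. Of the 479, those with the largest gap in every pair were Aldh1a7, Elovl6, Tcim, Acly, Rasd1, Anxa2, Niban2 and Ddo. Their mean log2 ratios ran from -3.72 to -2.05. Aldh1a7, an aldehyde dehydrogenase, had 7.96, 9.40 and 10.04 in replicate 2 of the N-terminal peptide, Nt8U and saline groups, against 11.80, 11.94 and 14.80 in replicate 1, and 11.34 and 11.08 in the obestatin replicate 2 and 1 samples. Elovl6 and Acly, both of fatty acid synthesis, had -3.66 ± 1.08 and -2.83 ± 0.65. Ddo, which breaks down D-aspartate, had 6.07, 7.47 and 6.62 in replicate 2, against 8.15, 9.49 and 8.66 in replicate 1, and was not well above background in the N-terminal peptide replicate 2 sample, where its ratio is only a bound. Without the Nt8U array the count of lower genes was 2814, which by definition includes all 479, and without the saline array it was 836.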

How the data were processed

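Labelled RNA of 8 samples was hybridised in pairs to 4 Agilent 2-colour arrays, each holding both samples of 1 group. The authors' scanner files hold spot intensities (median signal and median background per channel), per the file headers. A table of log2 values from the authors served as an alternative. Flags for background, saturation and outliers come from the deposited scanner files.

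Background was corrected with normexp (offset 50) and dyes were normalized by loess within arrays, with control spots at weight 0 and Aquantile between arrays for levels (limma 3.58.1, R 4.3.3). Of 41174 probes, 87 carried outlier flags and were dropped, and 28780 passed the filter, which asked for a signal well above background in at least 1 channel of each of the 3 arrays. A gene could pass this filter through the brighter sample of each pair alone. The counts of measured genes called are therefore partly set by the filter. Saturated spots were kept. The platform annotation gave 1 symbol to 32664 probes, several to 45 and none to 8465, and symbols were updated through a RefSeq table (GRCm38.p6). The brightest probe stood for a gene. An "at least" fold uses the bright side's mean against the dim side's floor or level.

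The members, the 18 gene lists, the 24 enzyme pairs and the rules were chosen with earlier results of these data known. Of 371 list entries 369 matched a gene and 317 were measured. No test was run on the 3 arrays, since the choice used their ratios. The pipeline was tested on simulated data in which few probes changed, equally in both directions. Such data do not show how the dye normalization behaves where many genes differ, as on these arrays. Genes chosen for naming were Prm1, Prm2, up to 4 genes with the largest mean log2 ratio per list, and textbook defining genes. All enzyme pairs, and the 8 highest and 8 lowest genes without saturation, were chosen too. Some of these genes and pairs are given in the figures only or not at all. Mcm2, Ccna2, Gfra1, Kit, Ret, Dppa3, Msh5, Spink2, Hook1, Crem, Fhl5, Trf, Inha, Hsd3b6, Spint4, Sly, Ssty1 and the X-linked and Y-linked genes without a list were named in addition, after their values were seen. Background correction, dye normalization, the filter, the probe rule, saturation, the obestatin array as a baseline, each array in turn and the fold limit were varied.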

Additional observations from a re-analysis of the deposited data

Results flagged for a closer look

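For 8 gene lists the median log2 ratio (replicate 2 over replicate 1) was 1 or more on each of the N-terminal peptide, Nt8U and saline arrays and below 0 on the obestatin array; the difference was not tested. On the obestatin array the median was -1.51 for elongating spermatids, -1.20 for round spermatids, -1.21 for the sperm axoneme, -0.69 for meiotic spermatocytes, -0.34 for the mitotic and meiotic cell cycle, -0.21 for Sertoli cells, -0.17 for spermatogonia and -0.006 for Leydig cells. The median of all genes was -0.04 there. Elongating spermatid genes had median levels of 10.29 in the obestatin replicate 2 sample and 11.64 in its replicate 1 sample, between the testis-rich and the testis-poor samples.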

How the results depend on the processing

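The count of genes higher in replicate 2 stayed within 1.5 times its value under all alternatives except a 4-fold limit (2077), and was 3553 to 4604 when 1 array was left out. The count of lower genes moved more, to 6 at 4-fold, 2048 on the processed signals of the scanner software and 2947 with the authors' deposited log2 values, and was 528 to 2814 when 1 array was left out. On those processed and deposited values the median of all genes was -0.06 and -0.47 instead of 0.19, and the cause of the larger counts was not tested. The elongating spermatid median was 5.88 at an offset of 10, 7.13 after the obestatin ratio was subtracted, and 5.37 to 5.65 without 1 array. X-linked genes had -0.83 with processed signals, -1.07 with the deposited values, -0.80 for probes well above background in all 6 samples, -0.08 without the filter on dim probes, and -0.51 to -0.13 without 1 array. The epididymis median was -4.55 to -1.62 and the adipocyte median -2.23 to -0.81 without 1 array, and the adipocyte median was -0.57 after the obestatin ratio was subtracted. C1qa (0.029) and Csf1r (0.024) changed sign after the obestatin ratio was subtracted, an alternative that also took the macrophage median to 0.37. Every ratio already is a pair within an array, so no further pairing was fitted. Saturation limits the largest ratios and background the 501 genes not seen in replicate 1.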
